A study of Mus musculus with 24 samples.

Results

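The epithelium of the ileum was compared with that of the jejunum in wild-type mice, with the 3 ileal and the 3 jejunal arrays of that genotype, 6 of the 24 arrays of the series. The arrays were chosen by tissue and genotype labels alone, and no measured value entered the choice. The animals were male C57BL/6 mice of 14 to 16 weeks on standard chow, fasted overnight and given 200 µL of olive oil into the stomach. The intestine was taken out 2 h later, its 3 segments were separated, and the epithelium of each was scraped off, so every intestinal value below is one after a fat load. Total RNA with an integrity number above 8.0 was hybridised to Affymetrix arrays from 100 ng per sample. The other intestinal groups, 3 arrays each, were the duodenum of wild-type mice and the ileum, jejunum and duodenum of mice lacking caspase-1 (Casp1-null, a line bred back to C57BL/6 for 10 generations), while the controls were C57BL/6J. The labels number the arrays of a group without saying which mouse each came from, so the p-values measure the spread between these arrays.

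The proximal small intestine takes up most sugar, amino acids, fat and iron, while the ileum recovers bile acids and cobalamin (vitamin B12). Bile acids enter ileal enterocytes through the sodium-dependent transporter Slc10a2, are carried by the binding protein Fabp6 and leave through the Slc51a and Slc51b dimer. Inside the cell they activate the nuclear receptor FXR, the product of Nr1h4, which induces the hormone gene Fgf15. The transcription factor Gata4 is known to maintain the jejunal pattern of expression and to hold back the ileal one.

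Values are the log2 levels deposited for each array, given in the order array 1, 2 and 3 of a group, and a difference is ileum minus jejunum. Of 18820 genes, 1636 were higher in the ileum (8.69% of all genes) and 1269 were lower (6.74%) at an adjusted p under 0.05 in limma, fitted over the 18 intestinal arrays with adjustment over all 35556 probe sets. At least a 2-fold change was seen in 460 of the higher and 371 of the lower genes, and the median difference over all genes was -0.02. A group mean under 4.874, the lowest median of any intestinal array, was read as not shown above background, and a difference against such a mean is given as a lower bound. A gene named as higher or lower below kept its call in each of the 6 fits that left out 1 of the compared arrays, unless the number of such fits is stated. Where a gene list is said to have no gene in one direction, none had an unadjusted p under 0.05 in that direction either, with the exceptions given beside the list. Between arrays of one group the correlation over probe sets was 0.9792 to 0.9926 in the ileum and 0.9899 to 0.9921 in the jejunum, and no 2 arrays were identical.

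Enterocyte transcripts were present throughout, with all 22 enterocyte markers above 4.874 on every array. Their mean was 11.65, 11.36 and 11.61 in the ileum and 11.78, 11.68 and 11.70 in the jejunum. Ileal array 2 stood apart. The 23 smooth muscle markers averaged 4.70, 8.37 and 4.64 in the ileum and 4.81, 4.74 and 4.68 in the jejunum, and 21 of them were above 4.874 on ileal array 2 against 5 to 7 on the other 5 arrays. Calponin (Cnn1), a smooth muscle protein, was at 3.55, 10.32 and 3.31 in the ileum and at 3.53, 3.60 and 3.55 in the jejunum. The 19 fibroblast and matrix markers showed the same array, at 5.08, 7.29 and 5.02 in the ileum and 5.21, 4.94 and 4.86 in the jejunum. None of the smooth muscle genes passed the limma test, and 0 of 23 had an unadjusted p under 0.05. With ileal array 2 left out, 1129 genes were higher and 831 lower. Counts of the lists described at length are also given without this array. Of the wild-type duodenal arrays, array 1 held exocrine pancreas transcripts: 15 markers averaged 10.15, 5.87 and 5.72 on arrays 1, 2 and 3. Duodenal array 1 entered the duodenal means given below and the estimate of spread of the fit.

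Of the 10 genes listed for ileal bile acid transport and signalling, 5 were higher and 1 was lower in the ileum, with a median difference of 0.70. Fabp6, the cytosolic bile acid carrier, was at 12.61, 12.35 and 12.53 in the ileum and at 4.66, 3.45 and 8.40 in the jejunum. That is a 127-fold difference (log2 6.99, standard error 0.841, adjusted p = 6.72e-05), and the jejunal arrays spanned far more than the ileal ones. The log2 difference was 5.96 without jejunal array 2 and 8.44 without jejunal array 3. In the latter fit both jejunal values were under 4.874, so the size of 8.44 is not exact. In bulk samples, fewer cells that express a gene and less of its RNA per cell cannot be told apart. Slc10a2, the apical transporter, stood at 11.76, 11.46 and 11.77 in the ileum and at 9.20, 7.29 and 9.35 in the jejunum, a difference of 8.28-fold (adjusted p = 0.00264). Without jejunal array 2, the lowest of the 6, its log2 difference of 3.05 became 2.39.

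The hormone gene Fgf15 read 7.13, 6.48 and 7.74 in the ileum and 4.59, 4.30 and 4.42 in the jejunum, where it was not shown above background, so it was at least 4.74-fold higher in the ileum (adjusted p = 2.26e-05). The FXR gene Nr1h4 was at 10.84, 10.77 and 10.95 in the ileum and at 9.52, 9.40 and 9.77 in the jejunum (2.45-fold, adjusted p = 0.00034). Neither gene had overlapping groups. Slc51a, one part of the basolateral exporter, was 2.13-fold higher in the ileum (adjusted p = 7.95e-05). Its partner Slc51b averaged 12.31 ± 0.14 in the ileum and 12.01 ± 0.19 in the jejunum (SD, n = 3 arrays each), a log2 difference of 0.30 that missed the threshold (limma adjusted p = 0.284). The conjugate exporter Abcc2 went the other way, at 9.34, 8.57 and 10.18 in the ileum and 11.25, 11.18 and 11.32 in the jejunum (3.71-fold lower, adjusted p = 0.000345). The bile acid receptor gene Gpbar1 and the exporter gene Abcc3 differed by 0.03 and 0.06 on the log2 scale, and the FXR target Nr0b2 was not shown above background in either segment, with means of 3.69 in the ileum and 4.38 in the jejunum. Leaving out ileal array 2 gave the same counts, 5 higher and 1 lower.

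**Figure D1:**
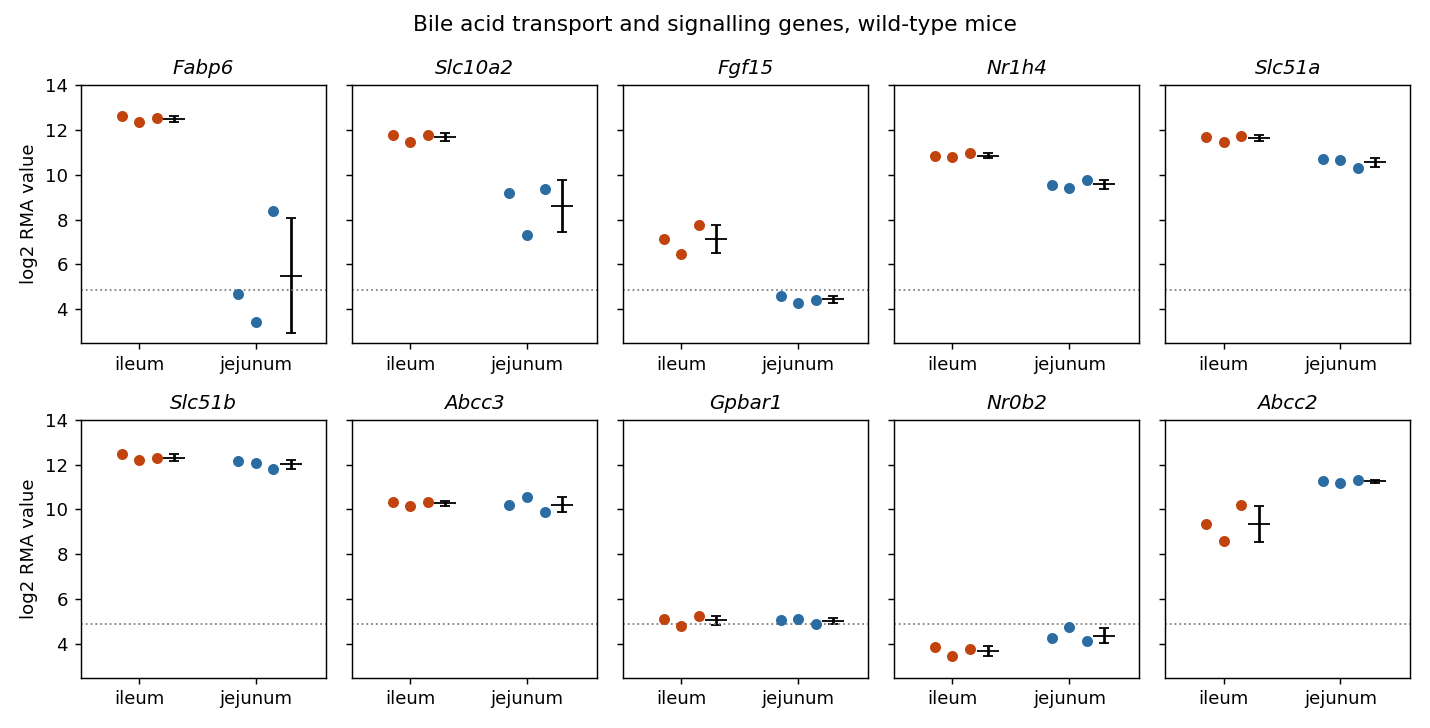
The 10 genes of bile acid transport and signalling in wild-type mice, with log2 level on the y axis, ileum on the left and jejunum on the right of each panel. Points are single arrays, bars are the mean ± SD of 3 arrays, and the dotted line marks 4.874. Fabp6 and Slc10a2 are tightly grouped in the ileum (12.35 to 12.61 and 11.46 to 11.77) and spread in the jejunum.

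The proximal promoters of 2 genes that were higher and 2 that were lower in the ileum are shown to set the letters of known regulator motifs beside these differences. Each runs from 250 bases before to 50 bases after the transcript start, 300 bases in all, 5′ to 3′ on the strand of the gene, from RefSeq on GRCm38.p6. They lie at chr11:43601513-43601812 on the minus strand for Fabp6, chr8:5105238-5105537 on the minus strand for Slc10a2, chr1:128328269-128328568 on the minus strand for Lct, the lactase gene, and chr11:118987931-118988230 on the plus strand for Enpp7, the alkaline sphingomyelinase gene. Capitals mark, on either strand, AGATAA (a letter pattern bound by GATA factors), TTTAT (bound by Cdx factors) and the inverted repeat of AGGTCA spaced by 1 base, the FXR pattern, with up to 2 mismatches. Marked stretches can overlap. The 2 lower genes printed both hold AGATAA. Aadac, which fell more than Enpp7 (log2 -4.48 against -4.07), and Abcc2 were also read, held none of these letters and are not printed.
Fabp6: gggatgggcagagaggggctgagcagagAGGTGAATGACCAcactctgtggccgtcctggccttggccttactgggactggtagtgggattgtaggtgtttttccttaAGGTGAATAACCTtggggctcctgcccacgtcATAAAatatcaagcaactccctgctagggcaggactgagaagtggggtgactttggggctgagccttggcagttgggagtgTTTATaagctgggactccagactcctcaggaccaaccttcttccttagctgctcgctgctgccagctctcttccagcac
Slc10a2: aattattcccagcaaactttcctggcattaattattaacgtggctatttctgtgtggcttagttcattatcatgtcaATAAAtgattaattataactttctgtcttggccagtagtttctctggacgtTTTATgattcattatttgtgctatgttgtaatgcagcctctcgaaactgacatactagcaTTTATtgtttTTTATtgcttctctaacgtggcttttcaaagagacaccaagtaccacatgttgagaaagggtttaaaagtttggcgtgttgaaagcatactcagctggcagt
Lct: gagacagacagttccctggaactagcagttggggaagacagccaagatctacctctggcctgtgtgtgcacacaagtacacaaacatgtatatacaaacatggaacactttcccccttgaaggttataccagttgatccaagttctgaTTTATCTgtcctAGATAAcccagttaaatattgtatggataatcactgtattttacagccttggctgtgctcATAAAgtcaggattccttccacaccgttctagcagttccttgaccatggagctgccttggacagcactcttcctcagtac
Enpp7: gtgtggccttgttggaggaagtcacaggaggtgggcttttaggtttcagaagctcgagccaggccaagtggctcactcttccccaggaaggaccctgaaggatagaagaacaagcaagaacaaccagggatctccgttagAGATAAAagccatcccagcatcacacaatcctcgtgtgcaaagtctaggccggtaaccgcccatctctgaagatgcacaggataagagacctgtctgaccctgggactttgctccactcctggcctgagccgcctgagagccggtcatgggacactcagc
Promoters were read for called bile acid genes and the largest falls of the brush border, chylomicron, triglyceride and fatty acid uptake lists. None of the 8 held the exact inverted repeat or one with 1 mismatch. Of the 32851 promoters in the RefSeq table, 0.00913% and 0.0822% hold these. Fabp6 held 2 copies with 2 mismatches, starting at -222 and -142 from the transcript start, in a looser search chosen after the stricter ones had been run (1.14% of all promoters hold one). AGATAA, held by 11.2% of all promoters, was found in Lct at -101 and -90, in Enpp7 at -110 and in Nr1h4 at -131, and not in Fabp6, Slc10a2, Slc51a, Abcc2 or Aadac. TTTAT, held by 40.0%, was found 4 times in Slc10a2, at 2 places each in Fabp6, Lct and Nr1h4 and at 1 place in Enpp7, and not in Slc51a, Abcc2 or Aadac. In Lct, Nr1h4 and Enpp7, 1 copy each overlapped AGATAA. Letters in a window are a description and not a measure of binding. No promoter of Fgf15 is printed.

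Of 6 genes listed for cobalamin uptake 1 was higher and none lower (1 at an unadjusted p under 0.05), while 2 were higher with median centring or without ileal array 1. The called gene was Mmachc, a cobalamin processing enzyme, at 7.33, 8.39 and 7.87 in the ileum and 6.53, 6.86 and 6.69 in the jejunum (2.25-fold, adjusted p = 0.00192). Cubn, the ileal receptor for cobalamin bound to intrinsic factor, was high in both segments, at 12.33, 11.91 and 12.26 in the ileum and 11.76, 11.42 and 11.32 in the jejunum. Its groups did not overlap, yet the log2 difference of 0.67 missed the threshold (limma adjusted p = 0.363). Its partner Amn differed by -0.34 (adjusted p = 0.352), the carrier Tcn2 by 0.04 (0.883), the lysosomal exporter Lmbrd1 by -0.26 (0.152) and the efflux pump Abcc1 by 0.78 (0.0566).

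Transcription factors that pattern the gut separated the segments in both directions, with 10 of 34 higher and 5 lower in the ileum. Gata4 was at 6.15, 5.02 and 5.97 in the ileum and 10.21, 9.81 and 9.67 in the jejunum, 18.2-fold lower (adjusted p = 1.18e-07). Its relative Gata6 was 1.84-fold lower (adjusted p = 0.00123) and remained high in both, at 10.64 ± 0.26 in the ileum and 11.52 ± 0.19 in the jejunum (SD, n = 3 arrays each). Onecut2, a homeodomain factor of the proximal gut, was 4.53-fold lower, Creb3l3, a liver and gut factor that drives lipid transport genes, was 3.25-fold lower, and the differentiation factor Klf4 was 1.52-fold lower.

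On the ileal side, the zinc finger gene Osr2 read 9.85, 9.92 and 10.10 in the ileum and 7.72, 7.95 and 8.13 in the jejunum (4.06-fold, adjusted p = 5.29e-07). Among the Hox genes, which encode position along the body axis, Hoxb9 was at 6.94, 7.06 and 7.01 in the ileum and 4.11, 4.47 and 4.39 in the jejunum. The jejunal means of Hoxb9, Hoxb5, Hoxb6 and Hoxb7 were all under 4.874, and these genes were at least 4.38-fold, 2.88-fold, 2.44-fold and 1.82-fold higher in the ileum. Maf was 1.48-fold higher. The calls of Cdx1 (1.5-fold), Klf5 (1.32-fold), Isx (1.38-fold) and Vdr (1.22-fold) were weak: they held in 4, 3, 1 and 0 of the 6 fits without 1 array. In the fit without ileal array 2, the list had 7 higher and 5 lower genes, and without jejunal array 1 it had 6 higher.

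The enzymes of the brush border, which finish digestion at the cell surface, were more often lower than higher in the ileum, with 10 of 21 listed genes lower, 1 higher and 10 not called. Lct, lactase, was at 7.49, 5.64 and 5.33 in the ileum and 12.57, 12.53 and 12.50 in the jejunum, an 83.2-fold difference (log2 -6.38, standard error 0.396, adjusted p = 1.06e-07). The log2 difference was -7.05 without ileal array 1. Enpp7, which breaks down sphingomyelin, was 16.8-fold lower, with 8.78, 7.50 and 9.18 in the ileum and 12.63, 12.53 and 12.51 in the jejunum. Asah2, the neutral ceramidase that acts after it, was 5.82-fold lower, and the nucleotide pyrophosphatase gene Enpp3 was 12.7-fold lower. Smaller falls were seen for trehalase (Treh, 3.52-fold), neprilysin (Mme, 2.90-fold), the peptidase Ace (2.56-fold), alkaline phosphatase (Alpi, 1.78-fold) and maltase-glucoamylase (Mgam, 1.37-fold). Mep1a, a subunit of the protease meprin, was the gene that rose, at 12.42, 12.01 and 12.25 in the ileum and 11.53, 10.89 and 11.24 in the jejunum (2.01-fold, adjusted p = 0.00644). Ileal array 2 was the lowest ileal array for Enpp7, Asah2, Enpp3, Treh, Mme, Ace, Alpi and Mgam, and without it 9 genes of the list were lower and 1 was higher.

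Among genes of sugar transport and fructose breakdown 8 of 14 were lower and none higher, with a median difference of -1.36. Slc2a2, the basolateral glucose and fructose transporter GLUT2, was at 7.80, 5.33 and 8.99 in the ileum and 11.80, 11.87 and 11.68 in the jejunum. The difference was 21.3-fold (adjusted p = 0.000234), and the ileal arrays differed among themselves. Its log2 difference of -4.41 became -3.39 without ileal array 2 and -5.22 without ileal array 3. The apical sodium and glucose cotransporter Slc5a1 (SGLT1) remained high in both segments, at 12.53 ± 0.21 in the ileum and 13.13 ± 0.02 in the jejunum (SD, n = 3 arrays each), 1.51-fold lower in the ileum (adjusted p = 0.000441). Its relatives Slc5a4b and Slc5a4a were 19.4-fold and 10.2-fold lower, and the inositol transporter gene Slc5a11 was 4.60-fold lower. Ketohexokinase (Khk), which starts fructose breakdown, was 2.67-fold lower, and Slc37a4, which carries glucose 6-phosphate into the endoplasmic reticulum, was 2.47-fold lower. Fbp1, a gluconeogenic enzyme, was 2.90-fold lower and held its call in 4 of 6 fits. When ileal array 2 was left out, 8 genes were again lower.

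**Figure D2:**
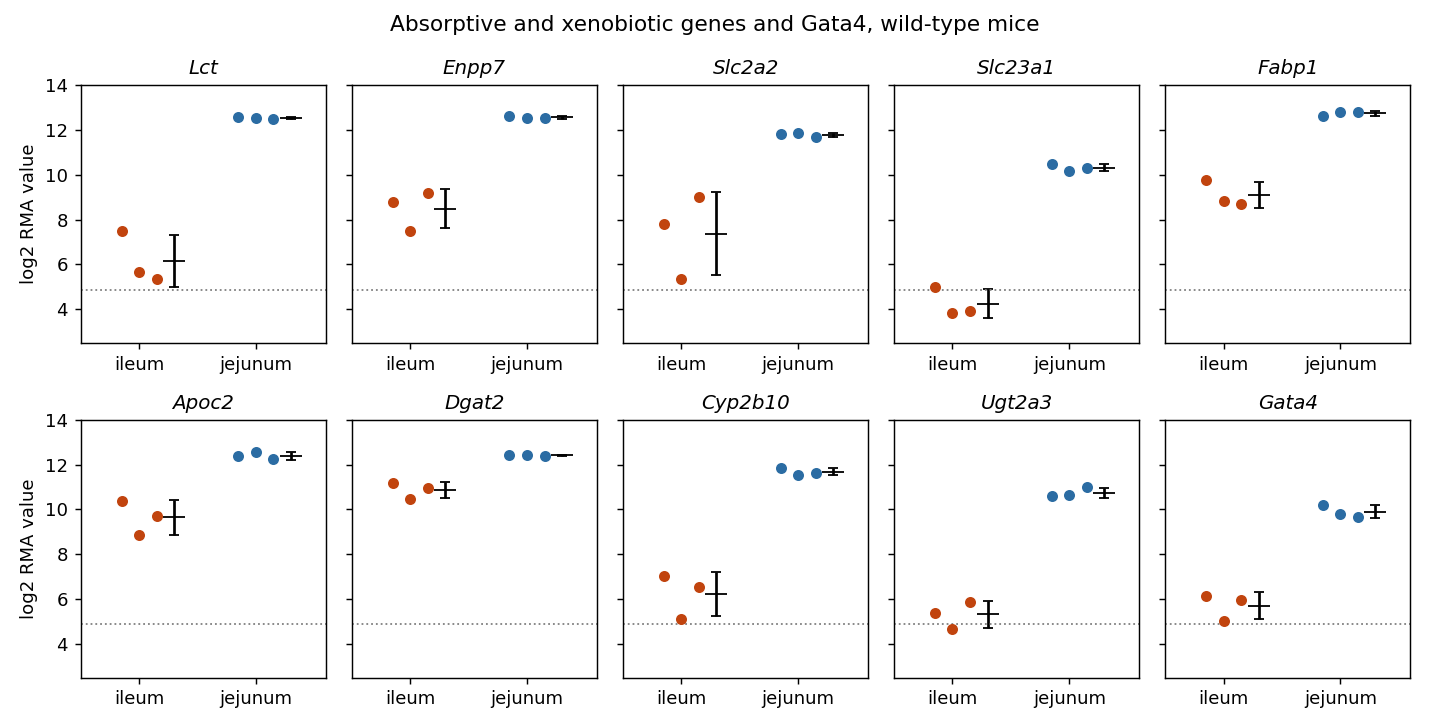
Genes of digestion, uptake and xenobiotic metabolism and Gata4 in wild-type mice, with log2 level on the y axis, ileum on the left and jejunum on the right of each panel. Points are single arrays, bars are the mean ± SD of 3 arrays, and the dotted line marks 4.874. The panels were picked from called genes, which favours separate groups, and the ileal arrays of Slc2a2 span 5.33 to 8.99.

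Amino acid and peptide transporters moved in both directions, with 8 of 18 lower and 2 higher. Slc6a14, a broad apical carrier of neutral and cationic amino acids, was at 10.94, 10.65 and 9.05 in the ileum and 3.78, 4.0 and 6.61 in the jejunum. By the group means it was at least 40.5-fold higher (adjusted p = 0.00182), although jejunal array 3 was above 4.874. Its log2 difference of 5.42 became 6.32 without jejunal array 3, the highest jejunal one. Slc1a1, the glutamate and aspartate transporter, was 4.87-fold higher, at 11.23, 10.97 and 11.41 in the ileum and 8.91, 8.84 and 9.01 in the jejunum. The carriers Slc36a1 (proton coupled), Slc7a8 (neutral amino acids) and Slc16a10 (aromatic amino acids) were 6.97-fold, 5.06-fold and 2.62-fold lower. The peptide transporter Slc15a1 was 1.55-fold lower, at 12.07 ± 0.27 in the ileum and 12.70 ± 0.05 in the jejunum (SD, n = 3 arrays each). Ileal array 2 left out, 7 were lower and 2 higher.

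Fat absorption is carried out by enterocytes that bind fatty acids, rebuild triglyceride and export it in chylomicrons, and most genes called at each of these steps were lower in the ileum. In chylomicron assembly 13 of 20 genes were lower and none higher, with a median of -0.56. Apoc2, the activator of lipoprotein lipase, was at 10.36, 8.84 and 9.72 in the ileum and 12.36, 12.56 and 12.24 in the jejunum (6.71-fold lower, adjusted p = 4.12e-06). Apoc3 and Apoa4, further apolipoproteins of the chylomicron, were 4.08-fold and 1.97-fold lower. The transfer protein genes Mttp and P4hb, whose products load lipid onto apolipoprotein B, were 1.79-fold and 1.62-fold lower. Of the coat proteins that carry chylomicrons out of the endoplasmic reticulum, Sec24d was 3.59-fold lower (9.71, 9.17 and 9.62 in the ileum and 11.47, 11.35 and 11.20 in the jejunum) and Sar1b was 1.49-fold lower. Apobec1, the enzyme that edits the apolipoprotein B transcript, was 1.89-fold lower. Without ileal array 2, 11 of the 20 genes were lower.

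Among genes of fatty acid uptake and binding 6 of 10 were lower and none higher (2 at an unadjusted p under 0.05). Fabp1, the liver-type fatty acid binding protein, was at 9.74, 8.83 and 8.70 in the ileum and 12.62, 12.79 and 12.78 in the jejunum (12.5-fold lower, adjusted p = 7.81e-08). Fabp2, the intestinal type, differed by 1.37-fold, with 12.89, 12.58 and 12.75 in the ileum and 13.16, 13.21 and 13.22 in the jejunum. The acyl-CoA synthetase gene Slc27a2 was 3.29-fold lower and Slc27a4 was 1.62-fold lower. Cd36, the fatty acid translocase, stood at 4.49, 8.82 and 4.55 in the ileum and 9.84, 9.72 and 9.95 in the jejunum, so that the muscle-rich ileal array 2 was near the jejunal level. The log2 difference of Cd36 was -3.88 (adjusted p = 0.0147), -5.32 without ileal array 2, and -3.15 and -3.18 without ileal arrays 1 and 3, when it was not called. Ileal arrays 1 and 3 were both under 4.874, so the size of -5.32 is not exact. Without ileal array 2, 5 of the 10 genes were lower. Cd36 is also made by fat, muscle and capillary cells, and what those cells contributed was not tested.

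Of 27 genes of triglyceride synthesis and lipid droplets 13 were lower and 3 higher. Aadac, an esterase of triglyceride turnover, was at 5.69, 5.73 and 5.79 in the ileum and 9.70, 10.38 and 10.56 in the jejunum (22.3-fold lower, adjusted p = 7.81e-08). Both diacylglycerol acyltransferases, which make the final bond of triglyceride, were lower, Dgat2 by 2.90-fold and Dgat1 by 1.53-fold. The acyltransferase Agpat3, the carboxylesterase Ces2g, the phosphatidate phosphatase Lpin3, the hormone-sensitive lipase gene Lipe and the acyl-CoA synthetase Acsl5 were lower by 3.50-fold, 4.39-fold, 2.21-fold, 1.98-fold and 1.76-fold. Gpat4, which starts glycerolipid synthesis, was 2.61-fold higher, at 7.63, 7.44 and 7.62 in the ileum and 6.05, 6.29 and 6.21 in the jejunum. Mgll, the monoacylglycerol lipase gene, was at least 2.96-fold higher, and its value on ileal array 2 (7.45) exceeded those on the other ileal arrays (5.92 and 5.94). With ileal array 2 set aside, this list had 10 lower and 3 higher genes.

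Genes of fatty acid oxidation were more evenly placed, with 7 of 33 lower and 2 higher and a median of -0.13. Acot12, an acetyl-CoA hydrolase, was the largest fall among them, 15.4-fold, at 7.31, 5.81 and 7.32 in the ileum and 10.76, 10.95 and 10.56 in the jejunum. The carnitine carrier Slc25a20 and the short-chain dehydrogenase Acads were 1.58-fold and 1.49-fold higher. Pex11a, Acaa1a and Hadh, of peroxisomal and mitochondrial oxidation, were 1.72-fold, 1.70-fold and 1.35-fold lower. Pdk4, the kinase that shuts off pyruvate dehydrogenase, was called in 2 of 6 fits, with a log2 difference of -1.6 that became -2.34 without ileal array 2. The list had 5 lower genes without ileal array 2 and 4 without jejunal array 2 or ileal array 3.

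Cholesterol synthesis went the opposite way to fat absorption: 16 of 20 genes were higher in the ileum, none was lower, and the median difference was 1.15. Sqle, squalene epoxidase, was at 11.17, 10.60 and 10.92 in the ileum and 9.14, 8.48 and 9.12 in the jejunum (3.95-fold, adjusted p = 0.00181). Fdft1, which makes squalene, was 3.83-fold higher, averaging 11.46 ± 0.22 in the ileum and 9.52 ± 0.47 in the jejunum (SD, n = 3 arrays each). Along the same path the mevalonate kinase gene Mvk rose 2.18-fold, Mvd 2.98-fold, the farnesyl diphosphate synthase gene Fdps 3.01-fold, lanosterol synthase (Lss) 2.86-fold, Tm7sf2 2.49-fold, Nsdhl 2.94-fold and Ebp 1.75-fold. None of these genes had an ileal array within the range of the jejunal ones, but they were picked by smallest p, which favours such separation. The list mean was 9.98, 9.58 and 9.83 in the ileum, 8.69, 8.42 and 8.89 in the jejunum and 9.39, 8.60 and 8.69 in the duodenum. The highest duodenal value was that of array 1, which held the pancreas transcripts. In the fit without ileal array 2, the lowest ileal one here, 13 genes were higher, and without jejunal array 2, the lowest jejunal one, 10 were.

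In cholesterol absorption and efflux 3 of 8 genes were lower and none higher. Abca1, which loads cholesterol onto high-density lipoprotein, was at 6.59, 7.10 and 6.93 in the ileum and 9.86, 9.55 and 9.15 in the jejunum (6.26-fold lower, adjusted p = 0.00647). The oxysterol receptor gene Nr1h3 was 1.73-fold lower, and the sterol exporter Abcg5 1.39-fold lower, with a call in 2 of 6 fits, and 2 genes of the list were lower without ileal array 2. For lipogenesis 7 of 16 genes were higher and 2 lower. Scd2, a stearoyl-CoA desaturase, was 15.8-fold higher, at 9.97 ± 0.12 in the ileum and 5.99 ± 0.24 in the jejunum (SD, n = 3 arrays each, limma adjusted p = 1.7e-08). The desaturase Fads2, the elongase Elovl5, acetyl-CoA carboxylase (Acaca), ATP citrate lyase (Acly) and acetyl-CoA synthetase (Acss2) were 4.14-fold, 2.60-fold, 2.65-fold, 2.06-fold and 1.52-fold higher. Fasn, fatty acid synthase, was 2.04-fold higher with a call in 4 of 6 fits. The lower genes encode regulators of this path, Srebf1 (2.47-fold, at 6.84, 6.91 and 6.81 in the ileum and 7.99, 8.31 and 8.18 in the jejunum) and Mlxipl (1.63-fold). The fit without ileal array 2 had 6 higher and 2 lower genes here, and the median difference was 0.52 against 0.80 with all arrays.

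Of 37 phase I genes, which oxidise foreign compounds, 20 were lower and none higher, with a median of -0.68. Cyp2b10, a cytochrome P450, was at 7.01, 5.12 and 6.54 in the ileum and 11.85, 11.55 and 11.62 in the jejunum (43.7-fold lower, adjusted p = 9.4e-07). Cyp2c66 and Cyp3a11 were 6.82-fold and 6.66-fold lower, and Cyp2d26 and Cyp2d22 were each 3.17-fold lower. The alcohol dehydrogenases Adh6a and Adh1 were 19.3-fold and 5.61-fold lower, and Adh4, whose ileal mean was under 4.874, at least 8.97-fold lower. P450 and dehydrogenase genes have close relatives in the mouse, and how far their probes tell those apart was not tested. Nr1i2, the gene of the xenobiotic receptor PXR, was 1.69-fold lower. Without ileal array 2, 19 of the 37 were lower.

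Of 33 genes of conjugation and export 12 were lower and 2 higher. Ugt2a3, a glucuronosyltransferase, averaged 5.32 ± 0.61 in the ileum and 10.75 ± 0.22 in the jejunum (SD, n = 3 arrays each), 43.0-fold lower (limma adjusted p = 4.77e-09). The glutathione transferases Gstm6, Gstm3, Gstt1 and Gstm4 were 7.34-fold, 4.11-fold, 2.61-fold and 1.94-fold lower, and the epoxide hydrolase Ephx2 was 4.19-fold lower. The exporter Abcg2 was among the genes that rose, at 11.15, 10.57 and 11.09 in the ileum and 9.93, 9.81 and 9.88 in the jejunum (2.09-fold, adjusted p = 0.00017). The sulfotransferase Sult1c2 was at least 1.32-fold higher. The count of lower genes was 8 without ileal array 2 and 7 without jejunal array 2.

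**Figure D3:**
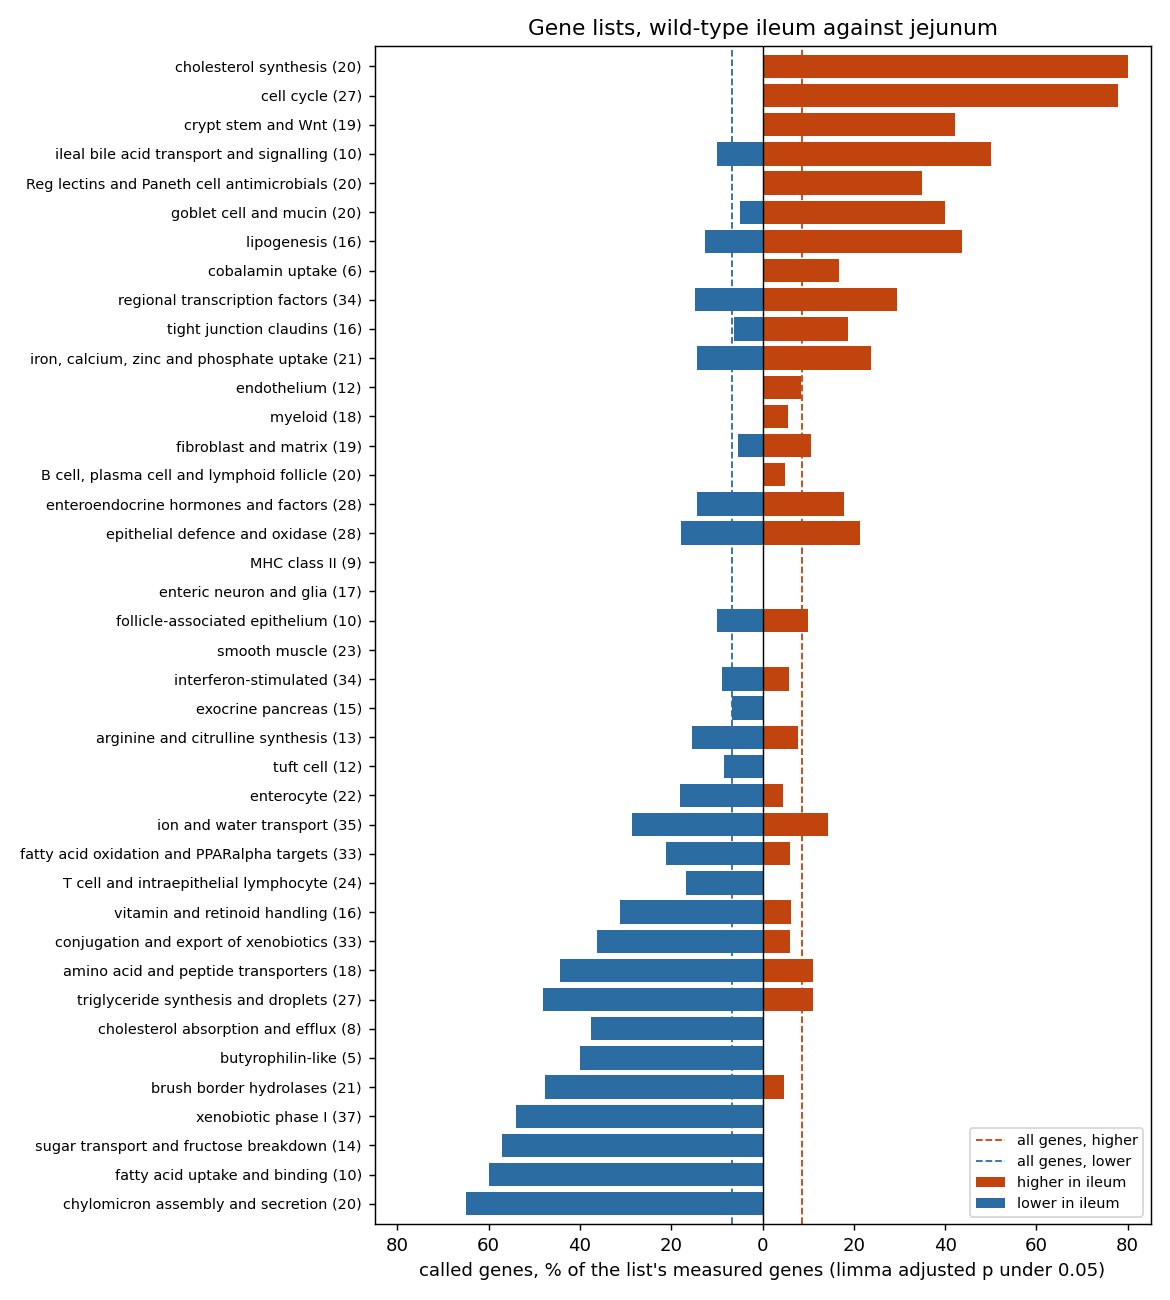
Share of each gene list called higher (right) or lower (left) in wild-type ileum than in jejunum, in percent of the list's measured genes, whose number stands in brackets. Dashed lines mark the shares over all genes, 8.69% higher and 6.74% lower. Cholesterol synthesis (16 of 20 higher) and chylomicron assembly (13 of 20 lower) lie at opposite ends.

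Minerals and vitamins gave patterns that the wild-type duodenum helps to place, and duodenal levels stand beside the others as a description. The duodenal means include the pancreas-rich array 1. Slc40a1 (ferroportin), the only known cellular iron exporter, was at 8.81, 8.42 and 8.5 in the ileum and 4.54, 4.84 and 4.93 in the jejunum, at least 13.0-fold higher (adjusted p = 4.63e-06). Its duodenal mean was 11.78 ± 0.29, so the jejunum was the low point of the 3 segments. S100g (calbindin D9k), which shuttles calcium, had the same order, with a mean of 12.64 ± 0.22 in the duodenum, 5.78 ± 0.34 in the jejunum and 7.77 ± 0.42 in the ileum (SD, n = 3 arrays each). The ileum was 3.97-fold over the jejunum (adjusted p = 0.00446). The calcium pump Atp2b1 was 1.64-fold higher, and the zinc exporter Slc30a1 and the zinc importer Slc39a4 were 1.96-fold and 1.65-fold higher with calls in 5 and 3 of 6 fits. The phosphate transporter Slc20a1 was 2.69-fold lower. Slc20a2, of the same family, was 1.64-fold lower with a call in 1 of 6 fits, and metallothionein Mt1 was 2.11-fold lower with a call in 2. In all, 5 of 21 mineral genes were higher and 3 lower.

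Enpp7 and Slc23a1, the sodium-dependent vitamin C transporter, peaked in the jejunum. Slc23a1 averaged 6.91 ± 0.93 in the duodenum, 10.31 ± 0.17 in the jejunum and 4.25 ± 0.63 in the ileum, and Enpp7 averaged 7.23 ± 1.29 in the duodenum, 12.56 ± 0.06 in the jejunum and 8.49 ± 0.88 in the ileum (SD, n = 3 arrays each). The ileal arrays of Slc23a1 read 4.98, 3.85 and 3.93 against 10.49, 10.16 and 10.30 in the jejunum, at least 43.4-fold lower (adjusted p = 2.95e-06). The retinol dehydrogenase Rdh7 was 6.45-fold and the retinol binding protein Rbp2 4.0-fold lower. The carotenoid oxygenases split, with Bco2 3.30-fold lower and Bco1, the enzyme that makes retinal from carotene, 2.09-fold higher and called in 4 of 6 fits. The folate transporter Slc46a1 was 2.60-fold lower and called in 1 of 6 fits. Of 16 vitamin genes 5 were lower and 1 higher, against 4 and 2 without ileal array 2.

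**Figure D4:**
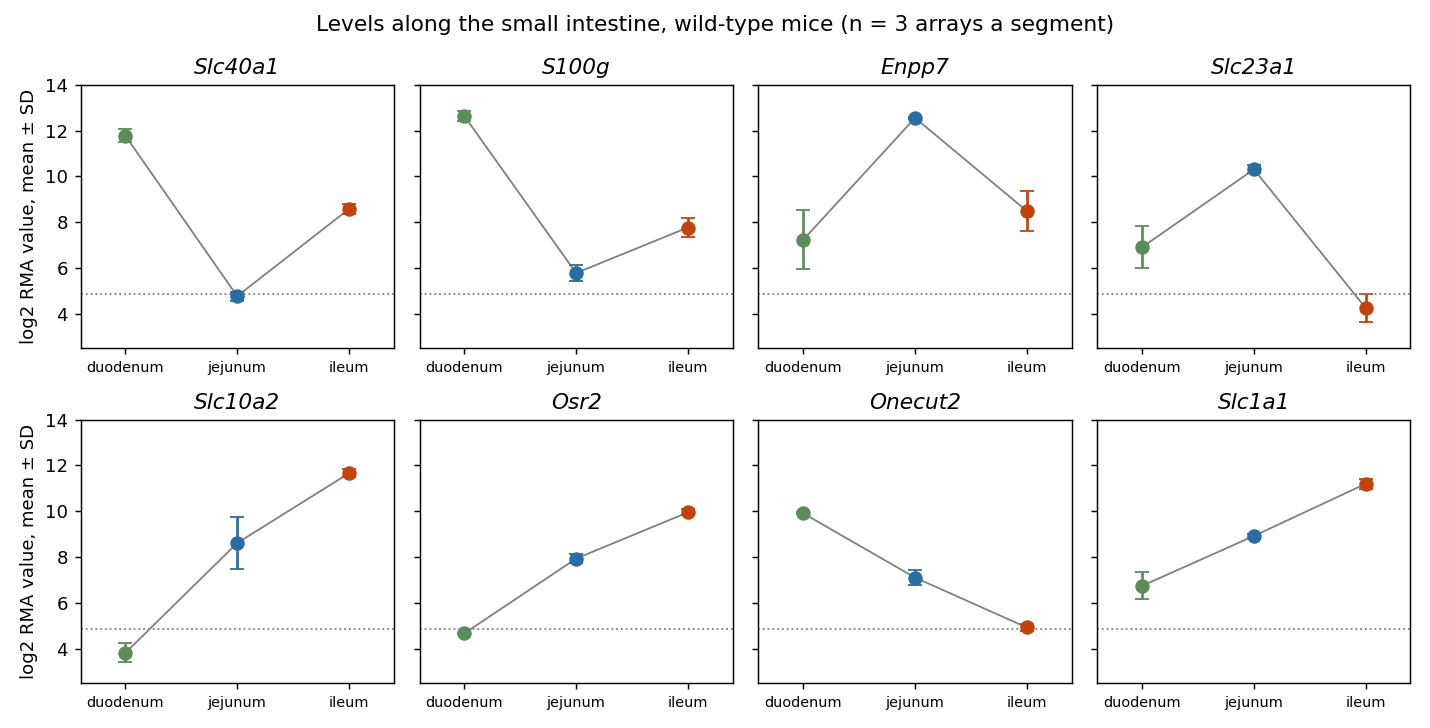
Mean log2 level ± SD of 8 genes in wild-type duodenum, jejunum and ileum (3 arrays each). Slc40a1 and S100g are lowest in the jejunum, Enpp7 and Slc23a1 are highest there, Slc10a2, Osr2 and Slc1a1 are highest in the ileum and Onecut2 is lowest in the ileum.

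Slc10a2 and Osr2 were ordered along the gut. Slc10a2 averaged 3.81 ± 0.42 in the duodenum, 8.61 ± 1.14 in the jejunum and 11.66 ± 0.18 in the ileum, and Osr2 averaged 4.66 ± 0.04 in the duodenum, 7.93 ± 0.20 in the jejunum and 9.95 ± 0.13 in the ileum (SD, n = 3 arrays each). Onecut2 ran the other way, at 9.91 ± 0.05 in the duodenum, 7.10 ± 0.34 in the jejunum and 4.92 ± 0.14 in the ileum. Gata4 had the same order, with the larger step between jejunum and ileum, and averaged 10.58 ± 0.09 in the duodenum, 9.90 ± 0.28 in the jejunum and 5.71 ± 0.61 in the ileum. Lct was highest in the jejunum and averaged 11.91 ± 0.45 in the duodenum, 12.53 ± 0.03 in the jejunum and 6.15 ± 1.17 in the ileum.

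Crypt and proliferation genes were higher in the ileum, and this result moved with single arrays. Of 27 cell cycle genes 21 were higher and none lower, with a median of 1.11. Cyclin A2 (Ccna2) was at 8.71, 9.79 and 8.63 in the ileum and 6.62, 7.84 and 7.41 in the jejunum (3.38-fold, adjusted p = 0.00287). Cyclin B2 (Ccnb2), the licensing factor Mcm7, the nucleotide reductase subunit Rrm1, the mitotic kinase Aurka and Cdc20 were 2.91-fold, 2.55-fold, 2.41-fold, 2.17-fold and 2.18-fold higher. The list mean was 7.06, 8.11 and 7.26 in the ileum and 6.03, 6.66 and 6.58 in the jejunum, with no overlap. Ileal array 2, with the smooth muscle transcripts, was the highest and jejunal array 1 the lowest. With ileal array 2 removed, 7 genes of the list were higher and the median was 0.80, and without jejunal array 1, 6 were higher.

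The stem cell gene Lgr5 was at 5.91, 7.86 and 6.54 in the ileum and 4.31, 4.60 and 4.74 in the jejunum, at least 3.72-fold higher (adjusted p = 0.000921). The stem cell factor Ascl2 was at least 1.23-fold higher and Prom1 2.28-fold higher. A second probe set of Prom1 gave a log2 difference of 0.37 against 1.19 for the one used. Slc12a2, the sodium, potassium and chloride cotransporter of crypt cells, was 4.17-fold higher, at 8.63, 10.12 and 9.24 in the ileum and 6.36, 7.65 and 7.81 in the jejunum, with a call in 4 of 6 fits. Of 19 crypt genes 8 were higher and none lower. With either ileal array 2 or jejunal array 1 left out, 3 were higher. How much crypt each scraping took up was not tested.

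Genes of secretory cells were more often higher than lower in the ileum. Of 20 Reg lectin and Paneth cell genes 7 were higher and none lower (1 at an unadjusted p under 0.05). Pla2g2a, a phospholipase gene, was at 7.48, 8.99 and 7.73 in the ileum and 4.66, 5.79 and 5.66 in the jejunum (6.50-fold, adjusted p = 0.000369). Mmp7, which processes defensins, was 4.99-fold higher, the ribonuclease Ang4 3.89-fold and Pla2g5 2.94-fold. Habp2, a serine protease gene, was 4.87-fold higher, and its log2 difference of 2.28 became 1.69 without ileal array 2. Lysozyme (Lyz1) was at 12.51, 13.05 and 12.84 in the ileum and 10.89, 11.25 and 12.23 in the jejunum, with a call in 1 of 6 fits, and the defensin Defa24 was called in 2. Defensin genes are near-identical copies, so their probe signals may be shared. With ileal array 2 set aside, 5 of the list were higher.

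Of 20 goblet cell genes 8 were higher and 1 lower. Creb3l4, a transcription factor of secretory cells, was at 7.37, 7.23 and 7.60 in the ileum and 6.01, 5.73 and 6.07 in the jejunum (2.76-fold, adjusted p = 3.13e-05). The secretory lineage factor Atoh1 and the mucin glycosyltransferase Galnt12 were each 1.73-fold higher and Creb3l1 was 1.87-fold higher. Clca3a1 was 2.37-fold lower. The calls of Spink4 (1.72-fold), B3gnt6 (2.03-fold) and Clca1 (1.2-fold) held in 1, 2 and 2 of 6 fits. The list had 7 higher genes without ileal array 2 and 5 without jejunal array 2 or 3.

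Enteroendocrine genes moved in both directions, with 5 of 28 higher and 4 lower. Gip, the incretin of proximal K cells, was at 6.18, 4.58 and 6.32 in the ileum and 9.96, 9.92 and 10.07 in the jejunum (19.6-fold lower, adjusted p = 1.06e-06). Cck, made by I cells, was 1.93-fold lower with a call in 2 of 6 fits, and Tph1, the enzyme of serotonin synthesis, 1.91-fold lower with a call in 5. The L cell hormone Pyy was at 9.42, 8.74 and 9.37 in the ileum and 7.58, 6.42 and 7.25 in the jejunum (4.26-fold higher, adjusted p = 0.0018), and Gcg, the gene of glucagon-like peptides, was 2.27-fold higher. The fatty acid receptor Ffar4 was 2.11-fold higher, and Gpr119 passed the test with both means under 4.874. Tac1, of substance P, was 3.30-fold higher and called in 2 of 6 fits. Without ileal array 2 the lower genes numbered 2, and without ileal array 3 they numbered 7.

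Ion and water transport had 10 of 35 genes lower and 5 higher. Car12, a membrane carbonic anhydrase, was at 8.56, 8.28 and 8.81 in the ileum and 5.12, 5.79 and 5.67 in the jejunum (8.13-fold, adjusted p = 2.59e-07), whereas the cytosolic Car2 was 4.23-fold lower. Slc9a3, the apical sodium and proton exchanger NHE3, was 5.01-fold lower, at 9.41, 8.62 and 8.85 in the ileum and 11.13, 11.61 and 11.11 in the jejunum. The water channel Aqp3 and the bicarbonate cotransporter Slc4a5 were at least 3.86-fold and 4.15-fold lower. The list had 2 higher and 8 lower genes in the fit without ileal array 2. Claudins, which set the tightness of the junctions, gave 3 higher and 1 lower of 16. Cldn8, a sealing claudin, was at 7.16, 7.48 and 7.14 in the ileum and 3.74, 3.86 and 3.87 in the jejunum, at least 5.22-fold higher (adjusted p = 1.13e-08). Cldn2, a cation and water pore, was 6.02-fold higher and Cldn15, a cation pore, 1.86-fold lower.

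Defence genes moved both ways, with 6 of 28 higher and 5 lower. The oxidase Nox1 was at 5.91, 7.42 and 6.22 in the ileum and 3.57, 3.98 and 4.26 in the jejunum, at least 3.12-fold higher, and its organiser Noxo1 was 1.65-fold higher. The endotoxin receptor Tlr4 was at least 1.97-fold higher, the peptidoglycan-binding Pglyrp1 1.61-fold, and the chemokine Ccl28, which draws IgA-secreting cells, 2.55-fold with a call in 5 of 6 fits. Cxcl16 was 3.72-fold lower, at 7.64, 6.96 and 7.75 in the ileum and 9.47, 9.12 and 9.44 in the jejunum, and the cytokine gene Il18, whose product is cut by caspase-1, was 2.80-fold lower. Ccl20 was 4.43-fold lower with a call in 5 of 6 fits. When ileal array 2 was left out, the lower genes numbered 2, and without jejunal array 1, jejunal array 3 or ileal array 3 they numbered 3.

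Of 24 T cell and intraepithelial lymphocyte genes 4 were lower and none higher (1 at an unadjusted p under 0.05), and 1 was lower without ileal array 2. Of 5 butyrophilin-like genes 2 were lower and none higher. These were Btnl1 and Btnl2, whose products act on intraepithelial γδ T cells, at 1.6-fold and 2.02-fold lower, and Btnl2 read 10.27, 9.58 and 10.23 in the ileum and 11.13, 11.11 and 10.87 in the jejunum. None of 9 genes of MHC class II was called in limma, against 1 lower at an unadjusted p under 0.05, and 2 of 34 interferon-stimulated genes were higher and 3 lower (1 and 3 without ileal array 2). Of these Usp18 was 4.41-fold lower, at 8.85, 7.23 and 8.28 in the ileum and 10.52, 10.17 and 10.08 in the jejunum, and the GTPase gene Iigp1 was at least 2.92-fold higher. Of the 3 called genes of the fibroblast list, which was higher on ileal array 2, Fbln1 and Pdgfrb were also called without that array. Fbln1, a matrix protein, was at 7.74, 7.63 and 7.69 in the ileum and 10.33, 10.33 and 10.25 in the jejunum (6.12-fold lower, adjusted p = 7.81e-08), and its log2 difference was -2.58 without that array. Pdgfrb, a receptor of stromal cells, was 4.29-fold higher, with a log2 difference of 2.00 without it.

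Several of the largest differences fell outside these groups. The 15 largest rises included the gene 1810065E05Rik (26.2-fold), the mitochondrial carrier Slc25a48 (at least 22.4-fold), the matrix-binding Abi3bp (at least 8.01-fold), the lipid transporter Abca12 (at least 6.14-fold) and sulfite oxidase (Suox, 12.1-fold). Suox was at 11.14, 10.89 and 11.01 in the ileum and 7.62, 6.94 and 7.69 in the jejunum. Fhl1, 2610528A11Rik, the semaphorin gene Sema3c and the protease gene Prss23 were 12.0-fold, 11.9-fold, at least 10.1-fold and 10.6-fold higher. A second probe set of Prss23 gave a log2 difference of 1.71 against 3.40 for the one used. The 15 largest falls included the nucleoside transporter Slc28a1 (28.4-fold, with 5.14, 4.78 and 5.0 in the ileum and 9.87, 9.86 and 9.68 in the jejunum), the nuclease gene Dnase1 (at least 22.0-fold) and the carnitine synthesis enzyme Bbox1 (at least 12.7-fold). All 30 were called in each fit without 1 array, but they had been chosen on these same arrays by call, size and lack of overlap.

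The same segments of Casp1-null mice gave a second comparison, whose group means shared no array with those of the first. Both comparisons came from the same fit over all intestinal arrays, so each gene had a single estimate of spread for both. Calls in wild-type and Casp1-null mice, and the overlap between them, are therefore not independent. The targeted gene Casp1 was at 7.80, 7.26 and 7.42 in the ileum and 6.33, 6.52 and 5.82 in the jejunum of Casp1-null mice, against 9.95, 9.28 and 9.90 in the ileum and 9.13, 9.44 and 9.32 in the jejunum of wild-type mice, lower on every null array. In Casp1-null mice 1272 genes were higher in the ileum (6.76%) and 1145 lower (6.08%). With each array centred on its median these counts were 976 higher and 1327 lower. Of the wild-type calls, 906 of the 1636 higher genes (55.4%) and 815 of the 1269 lower genes (64.2%) were called in the same direction in Casp1-null mice, which is 71.2% of the higher and 71.2% of the lower calls there. All 30 of the largest wild-type differences had the same sign in Casp1-null mice and 29 were called. Fabp6 was at 12.10, 12.39 and 12.47 in the ileum and 4.78, 4.52 and 4.93 in the jejunum of Casp1-null mice, at least 175-fold higher, since that jejunal mean was under 4.874. Slc10a2 differed by 4.19 in Casp1-null against 3.05 in wild-type mice on the log2 scale, Lct by -5.36 against -6.38, and Gata4 by -3.82 against -4.19.

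Gene groups were counted in Casp1-null mice in the same way. Cholesterol synthesis had 13 of 20 genes higher, cell cycle 20 of 27, chylomicron assembly 9 of 20 lower, sugar transport 11 of 14 lower and phase I 18 of 37 lower. Other lists had counts further from those in wild type. Interferon-stimulated genes had 9 higher and 1 lower of 34 in Casp1-null mice, against 2 and 3 in wild-type mice, and epithelial defence 13 and 2 of 28, against 6 and 5. Of 19 crypt genes 4 were higher in Casp1-null mice, against 8 in wild-type mice, and of 24 T cell genes none was called in limma (3 lower at an unadjusted p under 0.05), against 4 lower in wild-type mice. Without the muscle-rich ileal array 2, the wild-type counts were 3 crypt genes higher and 1 T cell gene lower. Epithelial defence then had 6 higher and 2 lower in wild type, and the interferon list 1 and 3. Whether the lists differ between genotypes was not tested. Casp1-null ileal array 3 also held smooth muscle transcripts, with a list mean of 7.67 against 4.57 and 4.74 on the other 2, and its cell cycle mean of 7.09 lay between theirs (7.45 and 7.04). Bile acid genes had 7 higher and 1 lower of 10, since Slc51b (log2 difference 0.88) and Abcc3 (1.29) were called there. The test of the difference between genotypes gave adjusted p = 0.901 for Slc51b and 0.53 for Abcc3. Fabp1 differed by -1.77 in Casp1-null and -3.64 in wild-type mice, with an adjusted p of 0.0535 for the difference between genotypes. Apoc2 differed by -0.96 in Casp1-null and -2.75 in wild-type mice (adjusted p = 0.189 for that difference).

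The segment difference itself differed between genotypes for 8 genes (0.0425% of 18820), against 966 at an unadjusted p under 0.05. Pik3ap1, an adaptor of phosphoinositide 3-kinase, was at 6.70, 6.6 and 6.54 in the ileum and 6.29, 6.53 and 6.77 in the jejunum of Casp1-null mice, against 9.72, 9.32 and 9.67 in the ileum and 7.31, 6.88 and 6.51 in the jejunum of wild-type mice. Only the wild-type ileum was high. The gene ccdc198 had the same pattern, with ileal means of 3.59 in Casp1-null and 8.47 in wild-type mice and both jejunal means under 4.874. Cldn8 was at 5.41, 4.68 and 4.91 in the ileum and 3.71, 3.94 and 3.80 in the jejunum of Casp1-null mice, at least 1.09-fold higher, against at least 5.22-fold in wild-type mice.

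**Figure D5:**
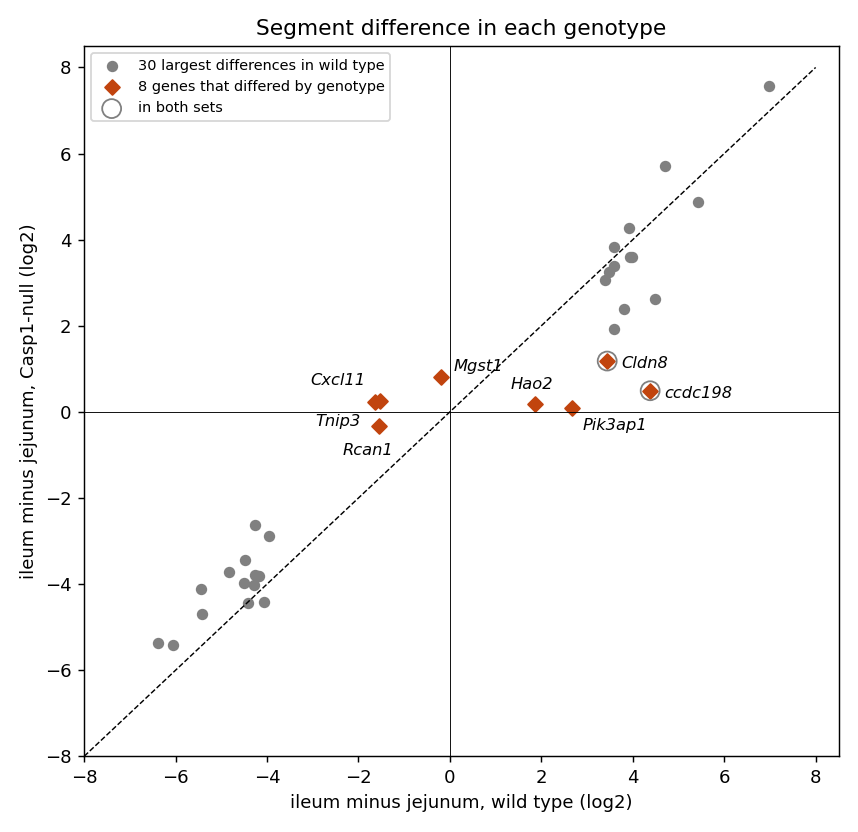
Ileum minus jejunum on the log2 scale in wild-type mice (x axis) and Casp1-null mice (y axis) for the 30 largest wild-type differences (grey) and the 8 genes whose difference depended on genotype (orange diamonds). The dashed line marks equal differences. Pik3ap1 (0.09 in Casp1-null against 2.67 in wild-type mice) and ccdc198 lie near 0 on the y axis. Differences against a mean under 4.874, as for ccdc198, Cldn8 and Fabp6, are plotted as measured and have no exact size.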

How the data were processed

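Affymetrix arrays were hybridised with total RNA of scraped intestinal epithelium, and each array was deposited by the authors as log2 values per probe set, made with RMA per the submitters' processing notes; its version and the genome build are not given in the sources used here. As a method, RMA corrects background, equalises array distributions and summarises probes, so levels are relative within the set. Of 35556 probe sets, 21218 had 1 gene symbol, 1881 several and 12457 none in the platform table, and each of 18820 genes was represented by its probe set of highest mean over the 18 intestinal arrays. limma 3.58.1 in R 4.3.3 fitted 6 group means to these 18 arrays (12 residual degrees of freedom), with Benjamini-Hochberg adjustment over all probe sets and calls at 0.05; liver arrays were left out. The fit was tested on simulated data. The number of arrays limits the precision. Motif letters were searched in RefSeq promoters.

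The genes, the 40 lists and the background reading were chosen with earlier results of these data known, and the lists are described by counts and medians with no set test. Genes were named from a pool chosen by rule, not all of which are printed: the 15 largest rises and the 15 largest falls among called genes with non-overlapping groups, every bile acid, cobalamin and transcription factor gene listed, up to 10 genes of each other list by smallest p, and the 8 genes of smallest p for the difference between genotypes. Cnn1 was named after its values were seen. Alternatives changed the variance prior, filter, normalisation, array weights, block, arrays in the fit and minimum fold.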

Additional observations from a re-analysis of the deposited data

Results flagged for a closer look

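The difference between ileum and jejunum differed between Casp1-null and wild-type mice for 8 genes by a test of that difference (limma, adjusted over all probe sets). The values are the log2 difference in Casp1-null mice minus that in wild-type mice. Pik3ap1 gave -2.58 (adjusted p = 0.000853), ccdc198 gave -3.89 (adjusted p = 0.000854) and Cldn8 gave -2.25 (adjusted p = 0.00103). All means of ccdc198 but that of the wild-type ileum, and both jejunal means of Cldn8, were under 4.874, so those sizes are not exact, and the same holds for Hao2 and Tnip3. Pik3ap1, ccdc198 and Cldn8 kept their call under all of the 22, 21 and 21 alternatives run. Hao2, a hydroxyacid oxidase gene, gave -1.68 (adjusted p = 0.002). Its mean was 3.45 in the ileum and 3.26 in the jejunum of Casp1-null mice, against 5.16 in the ileum and 3.28 in the jejunum of wild-type mice.

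Differences in the other direction were seen for Tnip3, Cxcl11, Rcan1 and Mgst1. Tnip3, of a family that binds the inhibitor A20, gave 1.78 (adjusted p = 0.00177), with means of 3.96 in the ileum and 3.72 in the jejunum of Casp1-null mice, against 4.12 in the ileum and 5.65 in the jejunum of wild-type mice, the only one of these 4 means above 4.874. Hao2 and Tnip3 each kept the call under 20 of 21 alternatives. The interferon-induced chemokine Cxcl11 gave 1.86 (adjusted p = 0.0186), and the wild-type ileum was the lowest group. It averaged 7.87 in the ileum and 7.63 in the jejunum of Casp1-null mice, against 6.10 in the ileum and 7.73 in the jejunum of wild-type mice. Rcan1, a regulator of calcineurin, gave 1.22 (adjusted p = 0.0473), and Mgst1, a microsomal glutathione transferase, gave 1.00 (adjusted p = 0.0373). The call held under 15 of 22 alternatives for Cxcl11, 7 for Mgst1 and 6 for Rcan1.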

How the results depend on the processing

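Leaving out 1 array at a time gave 1868 to 2974 called genes for wild-type ileum against jejunum (2905 with all arrays, lowest without jejunal array 1), 1497 to 2360 for Casp1-null mice (2417 with all, lowest without ileal array 1) and 6 to 11 for the difference between genotypes (8 with all). With only the arrays compared, which leaves 4 residual degrees of freedom for each segment comparison, the counts were 1608, 1090 and 5, and a test against a 1.5-fold minimum gave 346, 277 and 3. Array weights gave 19 genes for the difference between genotypes, and the cause was not tested. Median centring left 42.4% of the Casp1-null calls on the higher side against 52.6% without it, and 2 higher and 4 lower genes for the difference between genotypes, against 4 and 4. Deviations of same-numbered ileal and jejunal arrays correlated at 0.145, 0.056 and -0.005 in wild-type and 0.086, -0.050 and 0.167 in Casp1-null mice. Differently numbered arrays gave -0.108 to 0.061 and -0.21 to 0.157. These values do not settle whether same numbers share a mouse, and the labels do not say, so pairs entered only as alternatives. A replicate block gave 2995, 2319 and 8 genes, and with a random block (correlation 0.046) 3104 were called in wild type. Of 781 listed genes 281 were called, and 293 with the mean of all probe sets. None of the 253 called genes among the 427 named turned its direction under any alternative, and 175 kept their call under all but the 1.5-fold minimum. Several alternatives, such as the blocks and the 1.5-fold minimum, leave the difference itself unchanged and could not turn it. Many of these genes were also chosen by p or size in these data, so the counts are a description. Levels near 4.874 limit what can be said of low genes.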
